A study of Mus musculus with 6 samples.

Results

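The genes described are 30 mouse genes of selenoprotein biology outside the glutathione peroxidases. They comprise 3 thioredoxin reductases, 3 deiodinases, selenoprotein P with its receptors Lrp8 and Lrp2, and 7 selenoproteins of the endoplasmic reticulum. The rest are 5 other redox selenoproteins and 9 genes of selenocysteine synthesis, decoding or breakdown, with the Sephs2 relative Sephs1 among them. All 30 genes were chosen by gene name and not by any measured value. They were found through the current or the older name in the array files (Sepp1 for Selenop, Sep15 for Selenof). Selenov was found through the transcript that its probe was designed on. Of the 30 genes, 29 had a probe well above background and stand among 19412 genes measured in the series. The material was total RNA of whole ovaries of female C57BL/6J mice aged 20 weeks, from 3 wild-type samples and 3 samples with the SeBP1 knockout, a loss of selenium-binding protein 1 (gene symbol Selenbp1). Each sample was labelled with the dye Cy3 and read on its own single-colour Agilent oligonucleotide array. The labels do not give the part of Selenbp1 that was removed, and they do not tie each array to a separate mouse, so the spread behind each p-value is that between 3 samples of a genotype and may in part be technical. A change in the amount of a transcript per cell and a change in the number of cells that hold it cannot be told apart in RNA of a whole ovary.

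Selenoproteins carry selenocysteine, an amino acid inserted at UGA codons that otherwise end translation. Insertion needs a dedicated tRNA, a stem-loop in the 3′ untranslated region of the mRNA (the SECIS element), the SECIS-binding protein Secisbp2 and the elongation factor Eefsec. The amino acid is built on its tRNA: the kinase Pstk phosphorylates seryl-tRNA, and Sepsecs converts the product with selenophosphate that Sephs2 supplies. Selenoprotein P, which the liver secretes in large amounts, carries selenium in plasma and enters cells through Lrp8 in testis and brain and through Lrp2 (megalin) in the kidney. Selenium-binding protein 1 holds selenium without selenocysteine and is not a selenoprotein in this sense.

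Values are log2 probe signals minus the 75th percentile of all spots of the array that were not controls, so 0 is the level of that percentile, and a difference is knockout minus wild type on this scale. The arrays had between 61.6% and 69.3% of such spots well above background and none saturated. Selenbp1 itself read 2.68, 2.53 and 2.59 in wild type and -0.11, 0.02 and -0.37 in the knockout, a difference of -2.75 ± 0.13 (SE; limma, adjusted p = 0.0104), or 6.72-fold lower. Its adjusted p was 0.0792 with the slide as a fixed block, where the difference was -2.74. Markers of the ovary were present as labelled: all 7 granulosa, all 5 theca and interstitial, all 5 corpus luteum and all 8 oocyte markers were well above background on all 6 arrays. Summed marker signals differed between arrays of the same genotype. Wild-type replicate 2 had an oviduct and secretory epithelium sum of 29.2 times the 75th percentile against 0.473 to 1.11 on the other 5 arrays, and knockout replicate 2 had a corpus luteum sum of 4.50 against 36.1 to 90.8. Wild-type replicates 1 and 2 shared slide 1, and wild-type replicate 3 shared slide 2 with all 3 knockout arrays.

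None of the 29 measured genes was called at an adjusted p under 0.05 by limma, and none had an unadjusted p under 0.05. Selenbp1 was the only call over all features, 0.0041% of 24415 probes and 0.00515% of 19412 genes, and in 8 of 18 alternatives (the slide as a fixed block and the replicate block among them) no probe was called. Over all features, 3.95% of probes and 4.16% of genes had an unadjusted p under 0.05. Of the 29 genes, 20 had a lower mean in the knockout (69.0%) and 9 a higher mean, beside 54.5% lower over all genes. The median difference was -0.031 for the 29 genes and -0.017 for all genes. All but Lrp2 (-1.57) and Dio3 (0.48) had differences from -0.25 to 0.16. The 95% interval of the difference lay within a 2-fold change either way for 26 genes, the exceptions being Dio3, Lrp8 and Lrp2, and within a 1.5-fold change for 23. The 29 genes also varied little between arrays of a genotype, with a median SD of 0.141 beside 0.194 over all genes.

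**Figure D1:**
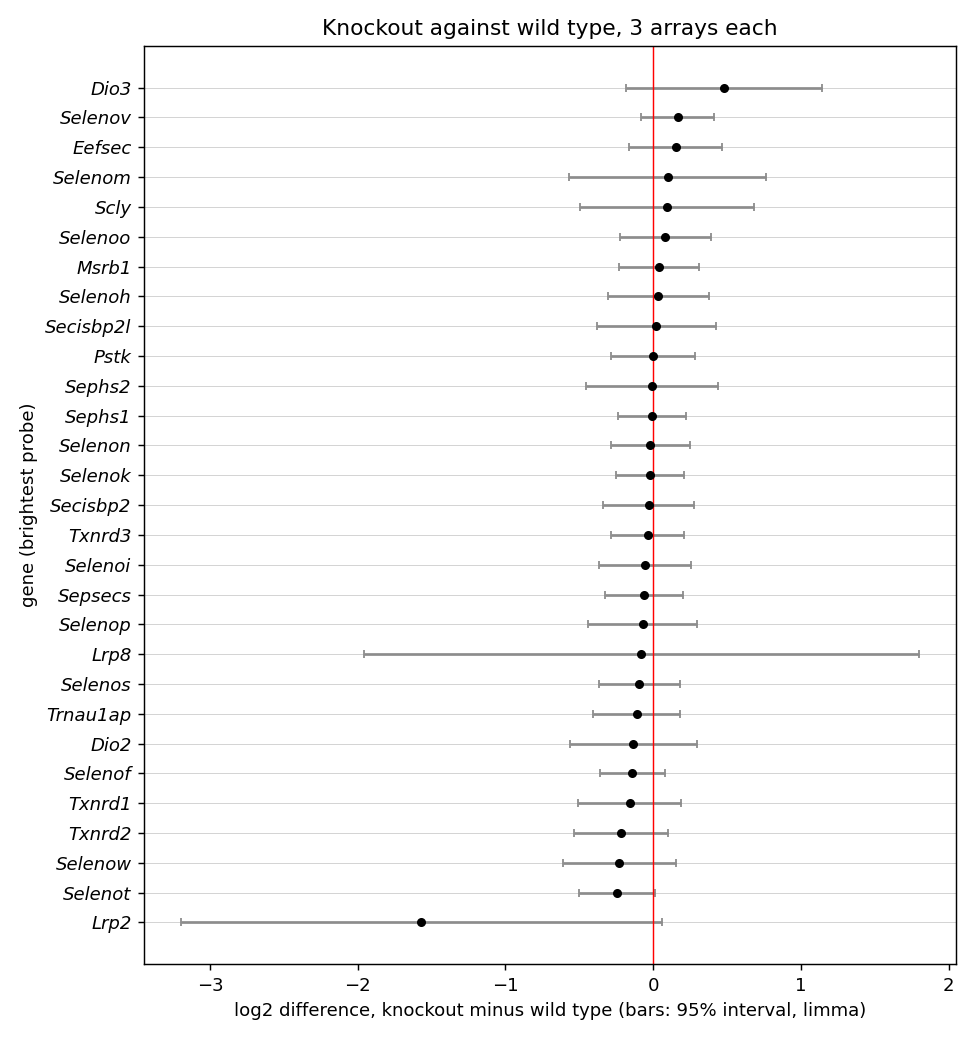
Log2 difference in probe signal, knockout minus wild type (horizontal axis), for the brightest probe of each of the 29 measured genes, ordered by the difference; points are limma estimates from 3 arrays per genotype and bars their 95% intervals. Every interval crosses the line at 0, and the intervals of Lrp8 and Lrp2 are the widest.

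The genotypes did not overlap for 3 genes: Selenot and Selenof were lower on every knockout array and Selenov was higher. Over all genes, 4.97% were lower without overlap, 4.22% higher and 9.19% either way, so the 3 of 29 stand near the share of all genes. Each of the 3 had an adjusted p of 1.00 in limma.

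The order of signals was led by Selenop (4.37 in the mean of 6 arrays, at the 94.0th percentile of gene levels), followed by Selenow (3.73), Selenok (3.53), Selenof (3.40), Msrb1 (3.32) and Selenoh (3.18). Selenos (2.82), Txnrd1 (2.64), Selenon (2.45), Selenom (2.39), Txnrd2 (2.32), Trnau1ap (2.23) and Selenot (2.13) came next. Pstk (1.50), Selenoo (1.27), Eefsec (0.91), Txnrd3 (0.24) and Secisbp2 (0.16) were also above the 75th percentile of their arrays. Below it were Selenoi (-0.95), Sephs1 (-1.03), Lrp8 (-1.48), Scly (-1.69), Selenov (-1.82), Dio2 (-1.99) and Dio3 (-2.67), and lowest were Sepsecs (-3.57), Secisbp2l (-3.74), Sephs2 (-3.93) and Lrp2 (-4.55). The gap from Selenop to Selenow (0.64) was larger than their combined SD over arrays, whereas the gaps from Selenow to Selenok (0.20), from Selenof to Msrb1 (0.084) and from Selenon to Selenom (0.055) were not. The members sat at nearly the same ranks in both genotypes, with exchanges only between Selenof and Msrb1, among Selenon, Selenom and Txnrd2, and between Sephs2 and Lrp2. These are levels of single probes, which bind with different strength, and they are no order of mRNA amounts per length.

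**Figure D2:**
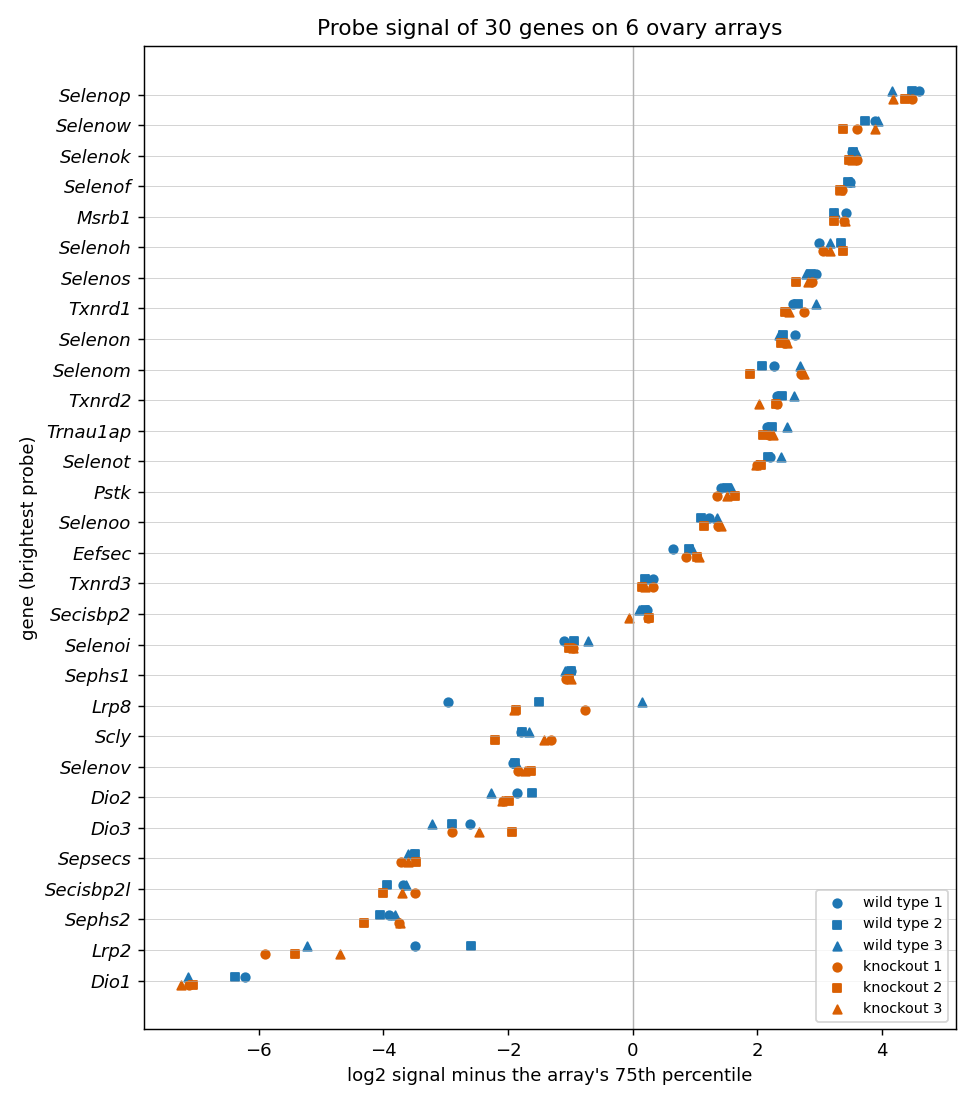
Log2 signal minus the 75th percentile of the array (horizontal axis) of the brightest probe of each of the 30 genes, ordered by the mean; blue symbols are the 3 wild-type arrays and orange symbols the 3 knockout arrays. The symbols of most genes lie close together, while those of Lrp8, Lrp2 and Dio3 spread widely, and Dio1 was well above background on 0 of the 6 arrays.

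How far a single probe can stand for a gene was visible for the 7 genes with several kept probes. The dimmer Selenon probe read 35.7-fold below the brighter, and the gap was 16.2-fold for Selenot, 6.86-fold for Lrp8, 4.09-fold for Sephs1, 3.24-fold for Secisbp2 and 2.77-fold for Selenok. Over the 8 pairs the knockout difference disagreed by at most 0.19, for Sephs1 (-0.0096 and 0.18), and its sign was shared in 5. For Selenok, Selenon, Sephs1 and Secisbp2 the disagreement was larger than the difference at the brightest probe. The sequences of the 3 pairs with the widest gaps are shown, with their coordinates, because they place both readings of a gene on its locus. For each of these probes, 30 of its 60 bases are printed 5′ to 3′ on the gene's strand, with AATAAA, the hexamer of the polyadenylation signal, in capitals where it occurs.
Selenon, brighter probe, bases 26 to 55, chr4:134093808-134093867 (mm9, minus strand): agtatgtcctgtAATAAAattggagagcct
Selenon, dimmer probe, bases 1 to 30, chr4:134095374-134095433 (minus strand): tacctcatccccaggctgcctagagaggtc
Selenot, brighter probe, bases 1 to 30, chr3:58396689-58396748 (plus strand): ttaattaaaaagttggtaaaacctggcttt
Selenot, dimmer probe, bases 1 to 30, chr3:58389875-58389934 (plus strand): cacatagcatctttcctgtcagtcttcaaa
Lrp8, brighter probe, bases 1 to 30, chr4:107549365-107549424 (plus strand): gtactgacatcatccacatgtggacatttg
Lrp8, dimmer probe, bases 1 to 30, chr4:107545308-107545367 (plus strand): tcatttgaatacagtatttacagaggatgt
In all 3 pairs the brighter probe lay farther along the gene in the direction of transcription, by 1566 bases in Selenon, 6814 in Selenot and 4057 in Lrp8. This order did not hold for every gene with several kept probes. The brightest Trnau1ap probe also lay farthest along, but in Sephs1, Selenok and Secisbp2 the dimmer probe did.

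The hexamer AATAAA was present in 4 of the 40 probes of these genes (10%), beside 12.6% of all 39429 probes, searched in the letters of the probe and not in their complement. The other probes with it were those of Txnrd2, Selenow and Msrb1, shown because with Selenon they make up these 4.
Txnrd2, bases 24 to 53, chr16:18479106-18479165 (plus strand): ttctagagcactAATAAAgaggatgtttta
Selenow, bases 28 to 57, chr7:16502562-16502621 (minus strand): tgttcccggttgAATAAAgtttggatgagg
Msrb1, bases 26 to 55, chr17:24879663-24879722 (plus strand): caagtagaagtcAATAAAcatgcagcctga
The 3 Trnau1ap probes read 2.23 in the mean for the brightest and 1.76-fold and 2.25-fold less for the others, of which both hold the 16 bases gttttggacccaacag and so overlap.

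**Figure D3:**
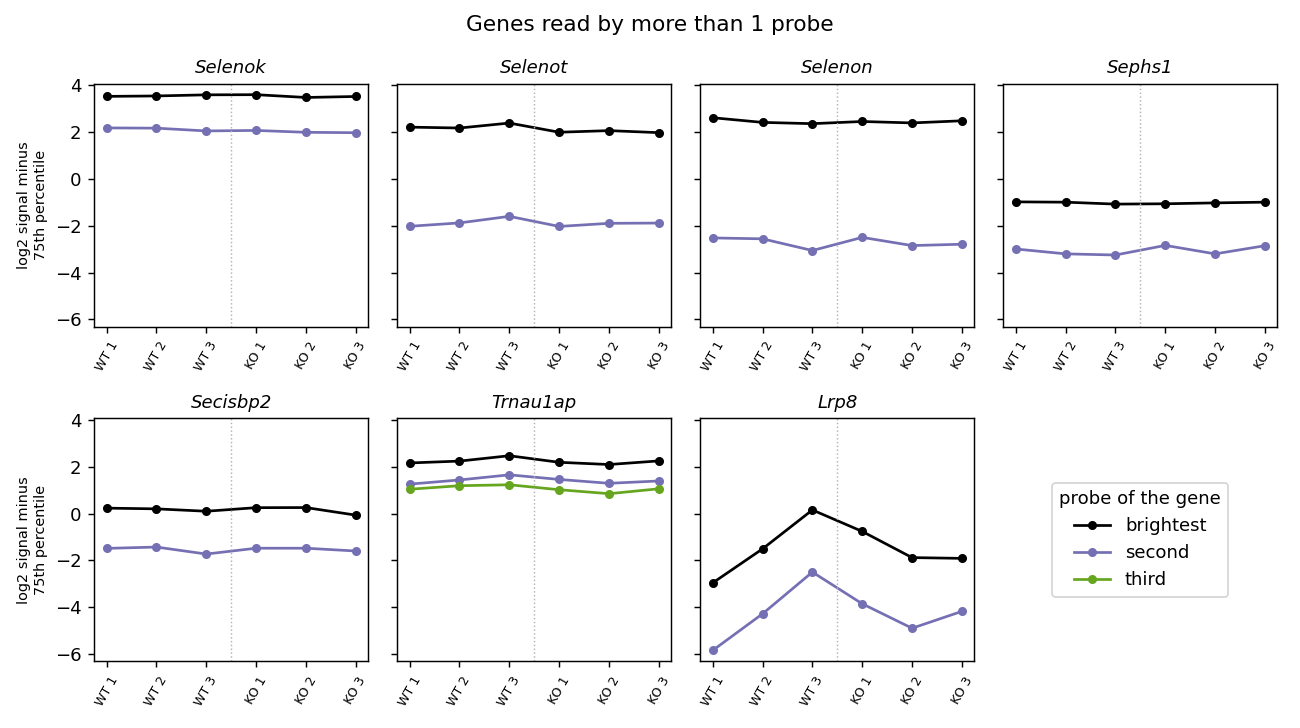
Log2 signal minus the 75th percentile of the array (vertical axis) on the 6 arrays, WT for wild type and KO for knockout, for the 7 genes with more than 1 kept probe; each line is a probe. Lines of a gene run roughly in parallel at different heights, and both Lrp8 probes peak on wild-type replicate 3.

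The thioredoxin reductases pass electrons from NADPH to thioredoxins, Txnrd1 in the cytosol, Txnrd2 in mitochondria and Txnrd3 chiefly in testis. Txnrd1 read 2.57, 2.65 and 2.93 in wild type and 2.74, 2.43 and 2.50 in the knockout. The ranges overlapped, with wild-type replicate 3 the highest, and the difference was -0.16 ± 0.14 (SE). Txnrd2 read 2.31, 2.39 and 2.58 in wild type and 2.31, 2.29 and 2.03 in the knockout. Knockout replicate 3 was the lowest, and the difference was -0.22 ± 0.13 with a 95% interval from -0.54 to 0.10. Against wild-type replicate 3 alone, on the slide that held both genotypes, both differences were -0.37. Without that array they were -0.054 for Txnrd1 and -0.14 for Txnrd2, and without knockout replicate 3 the Txnrd2 difference was -0.13. Txnrd3 read from 0.14 to 0.32 over the 6 arrays, with a difference of -0.038 ± 0.10.

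Selenop, the plasma carrier of selenium, read 4.58, 4.48 and 4.16 in wild type and 4.48, 4.37 and 4.17 in the knockout. Its genotypes overlapped over nearly their whole range, and the difference was -0.071 ± 0.15, with a 95% interval from -0.44 to 0.30. On the slide with both genotypes the difference was 0.18.

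Lrp8, which binds selenoprotein P at the cell surface and is also a receptor for reelin and apolipoprotein E, varied far more between arrays than between genotypes. It read -2.96, -1.51 and 0.15 in wild type and -0.76, -1.88 and -1.91 in the knockout. Both the lowest and the highest array were wild type, 8.66-fold apart, and the second probe, with a 10.2-fold range, had its lowest and highest readings on the same arrays. The difference was -0.080 ± 0.78, and the spread within a genotype stood at the 98.7th percentile of all genes. Without wild-type replicate 3 the difference was 0.72, and against that array alone it was -1.67. The summed granulosa signal was 222, 180 and 117 times the 75th percentile in wild type and 138, 149 and 238 in the knockout, lowest on the array with the most Lrp8. Cyp19a1, the aromatase of granulosa cells, read 4.37, 2.99 and 1.44 in wild type and 2.52, 2.28 and 4.23 in the knockout. It too was lowest on wild-type replicate 3, and it was highest on wild-type replicate 1, where Lrp8 was at its lowest. Amh, Fshr, Inha, Inhba and Hsd17b1 were also lowest on wild-type replicate 3, and only Foxl2 was not. No marker but Cyp19a1 was highest on wild-type replicate 1: Amh peaked on knockout replicate 2 and Fshr, Inha, Inhba and Hsd17b1 on knockout replicate 3. Foxl2 read 3.29, 3.25 and 3.31 in wild type and 3.01, 3.21 and 3.08 in the knockout, highest on wild-type replicate 3. The part of granulosa cells in the Lrp8 values was not tested.

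Lrp2, a large endocytic receptor of absorptive epithelia, had the largest difference of the 29 genes. It read -3.49, -2.60 and -5.22 in wild type and -5.90, -5.42 and -4.69 in the knockout. Wild-type replicates 1 and 2 were above every other array, while wild-type replicate 3 lay within the knockout range. The difference was -1.57 ± 0.67 (95% interval -3.20 to 0.058; limma, unadjusted p = 0.0564, adjusted p = 1.00). It was -0.12 against wild-type replicate 3 on the shared slide, -0.98 when wild-type replicate 2 was left out, and -2.29 without replicate 3 of the wild type (limma, unadjusted p = 0.00246, adjusted p = 0.324). Of the 6 oviduct and secretory epithelium markers, Ovgp1, Agr2 and Epcam were kept. Pax8, Foxj1 and Wnt7a had no probe well above background on every array of a genotype and were not kept. The summed level of the kept markers ranged from 0.942 to 29.2 in wild type and from 0.473 to 0.974 in the knockout. Ovgp1, the oviductal glycoprotein, read 4.83 on wild-type replicate 2, the array with the most Lrp2, and from -3.49 to -1.13 on the other 5. Agr2 read -4.93, -2.26 and -3.82 in wild type and was well above background on 0 of the 3 knockout arrays, so it was kept through the wild type alone. Epcam, an adhesion protein of epithelia, read -0.39, -0.67 and -0.81 in wild type and -1.54, -0.97 and -0.63 in the knockout. Like Lrp2, it was lowest on knockout replicate 1, followed by knockout replicate 2 and wild-type replicate 3. Its upper arrays stood in another order than those of Lrp2. Epcam was highest on wild-type replicate 1 and higher on knockout replicate 3 than on wild-type replicate 2. Of the 4 kidney markers only Miox was kept. The part of other epithelium in the Lrp2 values was not tested, and for the 2 wild-type arrays of slide 1 genotype and slide cannot be told apart.

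**Figure D4:**
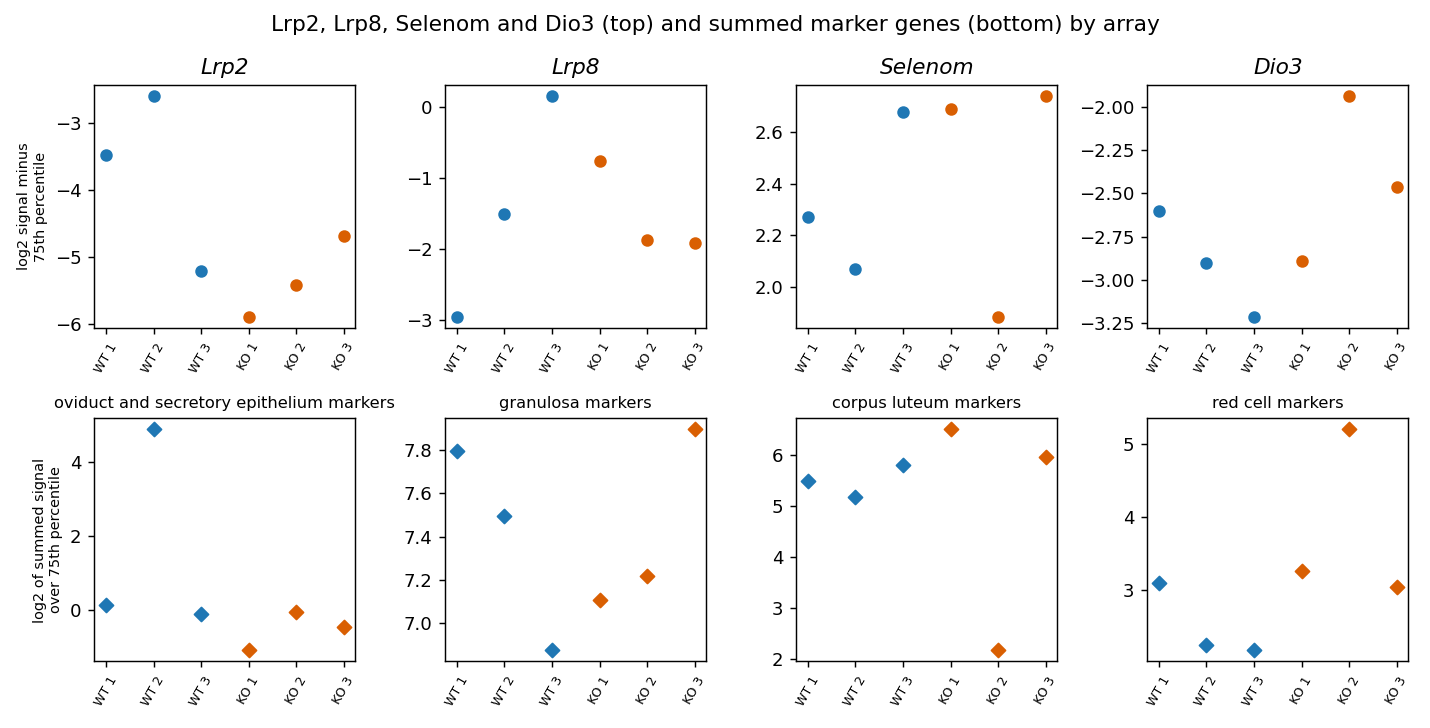
Upper row, log2 signal minus the 75th percentile for Lrp2, Lrp8, Selenom and Dio3 on each array; lower row, log2 of the summed signal over the 75th percentile for 4 marker lists (blue wild type, orange knockout). Lrp2 and the oviduct sum, which there is nearly all Ovgp1, are both highest on wild-type replicate 2. Selenom and the corpus luteum sum are both lowest on knockout replicate 2.

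Of the 7 selenoproteins of the endoplasmic reticulum, 6 had a lower mean in the knockout, with a median difference of -0.055. Selenot, a thioredoxin-like protein of the reticulum membrane, read 2.20, 2.17 and 2.38 in wild type and 1.99, 2.06 and 1.97 in the knockout. Every knockout array lay below every wild-type array, and the difference was -0.25 ± 0.11 (95% interval -0.50 to 0.0096; limma, unadjusted p = 0.0568, adjusted p = 1.00). Its dimmer probe read -2.03, -1.88 and -1.60 in wild type and -2.03, -1.90 and -1.89 in the knockout, and there the genotypes overlapped, with a difference of -0.10 ± 0.14. Selenof, which binds the glycoprotein folding sensor Uggt1, read 3.49, 3.45 and 3.49 in wild type and 3.36, 3.32 and 3.32 in the knockout. Its genotypes did not overlap, and the difference of -0.14 ± 0.092 had a 95% interval from -0.36 to 0.079.

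Selenok and Selenos are membrane proteins that take part in the disposal of misfolded proteins. Selenok read from 3.47 to 3.59 over all 6 arrays, a difference of -0.021 ± 0.096, and its second probe gave -0.12. Another 3 probes on the array are described as reading loci similar to Selenok, and whether such copies share signal with its own probes was not tested. Selenos read 2.94, 2.87 and 2.78 in wild type and 2.87, 2.62 and 2.81 in the knockout, with the lowest value on knockout replicate 2 and a difference of -0.096 ± 0.11 (-0.024 without that array). Selenon, which regulates calcium handling of the reticulum, differed by -0.020 ± 0.11 at its brighter probe and 0.0012 at the dimmer. Selenoi, the ethanolamine phosphotransferase of phosphatidylethanolamine synthesis, differed by -0.055 ± 0.13, and its highest array was wild-type replicate 3 (-0.71).

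Selenom, a thioredoxin-like protein of the reticulum lumen, was the most variable of these 7 genes. It read 2.27, 2.07 and 2.68 in wild type and 2.69, 1.88 and 2.74 in the knockout, a difference of 0.098 ± 0.28. Knockout replicate 2 was lowest and the other 2 knockout arrays were highest. The summed corpus luteum signal, 44.8, 36.1 and 55.8 in wild type and 90.8, 4.50 and 62.4 in the knockout, ranked the arrays in the same order except for the top pair, knockout replicates 1 and 3. Sfrp4 was the brightest of these markers on every array but knockout replicate 2. Ptgfr, Prlr, Lhcgr and Sfrp4 were each lowest on knockout replicate 2. Akr1c18 was not: it was lowest on wild-type replicate 3 (-2.23) and read -1.65 on knockout replicate 2. The part of the corpus luteum in the Selenom values was not tested. Without knockout replicate 2 the Selenom difference was 0.38.

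The other 5 redox selenoproteins split 1 lower and 4 higher, with a median difference of 0.037. Selenow, a small protein best known from muscle, read 3.89, 3.72 and 3.94 in wild type and 3.60, 3.36 and 3.89 in the knockout. Knockout replicates 1 and 2 were below all wild-type arrays and replicate 3 was among them, and the difference was -0.23 ± 0.16 (95% interval -0.61 to 0.16). Without knockout replicate 2 it was -0.10, and without knockout replicate 3 it was -0.36. Selenov, best known from testis, read -1.93, -1.89 and -1.88 in wild type and -1.84, -1.63 and -1.73 in the knockout, higher without overlap by 0.16 ± 0.10 (95% interval -0.082 to 0.41). Selenoh, a nuclear protein, read from 2.99 to 3.33 in wild type and from 3.05 to 3.38 in the knockout, a difference of 0.035 ± 0.14. Selenoo, a mitochondrial pseudokinase that transfers AMP to proteins, differed by 0.081 ± 0.13, and Msrb1, which reduces methionine-R-sulfoxide, by 0.037 ± 0.11.

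Transcripts of Gpx1, Selenow and Selenoh are known from other tissues to decline when selenium is scarce. Here Gpx1 read 4.77, 4.90 and 5.38 in wild type and 4.90, 4.43 and 4.89 in the knockout. The genotypes overlapped, with a difference of -0.28 ± 0.21. With Selenow at -0.23 and Selenoh at 0.035, 2 of the 3 had a lower mean, and none passed the test.

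The deiodinases convert thyroid hormones: Dio1 and Dio2 activate thyroxine, and Dio3 inactivates both hormones. All 3 Dio1 probes were well above background on 0 of the 6 arrays, so no difference is given for it. Dio2 read -1.86, -1.62 and -2.28 in wild type and -2.08, -1.99 and -2.10 in the knockout, a difference of -0.14 ± 0.18 with wild-type replicates at both ends of the range. Dio3 read -2.60, -2.90 and -3.21 in wild type and -2.89, -1.94 and -2.46 in the knockout. Knockout replicates 2 and 3 were above every wild-type array and knockout replicate 1 was not, and the difference was 0.48 ± 0.27 (95% interval -0.19 to 1.14; limma, unadjusted p = 0.131, adjusted p = 1.00). It was 0.23 without knockout replicate 2, 0.71 without knockout replicate 1 and 0.78 against wild-type replicate 3 on the shared slide. Knockout replicate 2 also had the highest summed signal of the 2 kept red cell markers, 36.8 against 4.52 to 9.56 on the other arrays, and the part of this in the Dio3 value was not tested.

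The 9 genes of selenocysteine synthesis, decoding or breakdown had differences from -0.11 to 0.15, with a median of -0.0069, and none had groups without overlap. Of the synthesis enzymes, Pstk read 1.42, 1.52 and 1.57 in wild type and 1.35, 1.64 and 1.52 in the knockout, a difference of -0.0013 ± 0.12. Sepsecs differed by -0.062 ± 0.11 and Sephs2, which makes selenophosphate and is itself a selenoprotein, by -0.0069 ± 0.18. Sephs1, a relative of Sephs2 that lacks selenocysteine, was the steadiest of the 29 genes at its brighter probe. It read -0.98, -1.00 and -1.08 in wild type and -1.07, -1.03 and -1.00 in the knockout, an SD of 0.040 over the 6 arrays. Scly, the lyase that frees selenium from selenocysteine, read -1.79, -1.77 and -1.66 in wild type and -1.30, -2.21 and -1.42 in the knockout. The knockout arrays lay on both sides of the wild-type values, and the difference was 0.096 ± 0.24.

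Of the decoding factors, Eefsec, which brings the selenocysteine tRNA to the ribosome, read 0.65, 0.91 and 0.95 in wild type and 0.85, 1.04 and 1.07 in the knockout. The genotypes overlapped, and the difference was 0.15 ± 0.13, 0.056 without wild-type replicate 1 and 0.035 on the shared slide. Secisbp2 read 0.23, 0.20 and 0.10 in wild type and 0.25, 0.26 and -0.07 in the knockout, a difference of -0.031 ± 0.13 with 0.029 at its second probe. Its paralog Secisbp2l differed by 0.021 ± 0.17. Trnau1ap, a protein associated with the selenocysteine tRNA, differed by -0.11 ± 0.12, and its other probes by -0.068 and -0.18. At the brightest probe the difference was -0.023 without wild-type replicate 3 and -0.29 on the shared slide.

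Some arrays stood at the edge of the range for several of these genes at once. Knockout replicate 2 held the lowest value of 10 of the 29 genes and the highest of 6, and wild-type replicate 3 the highest of 8 and the lowest of 5. The median deviation of the 29 genes from their own means was -0.071 on knockout replicate 2 and from -0.0042 to 0.041 on the other 5 arrays.

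Genes that work with these selenoproteins were read from lists of partners, none of whose members was called. Over all genes, 54.5% had a lower mean in the knockout. All 4 selenium-containing glutathione peroxidases had a lower mean, with a median difference of -0.17. Gpx3, the secreted form, read 4.13, 3.79 and 4.15 in wild type and 4.35, 2.59 and 3.92 in the knockout, a difference of -0.40 ± 0.44 in which knockout replicate 2 stood far below the rest. Of 12 thioredoxins, peroxiredoxins and methionine sulfoxide reductases, 11 had a lower mean, with a median of -0.12. Among them is Txn1, whose spots on wild-type replicates 1 and 2 were left out as outliers, so that its wild-type value is that of replicate 3 alone. Over the 11 genes read on all 6 arrays, 10 had a lower mean, with a median of -0.094. Of these, Txn2, Prdx1, Prdx2, Prdx3, Prdx5 and Prdx6 were each highest on wild-type replicate 3. Txnip, Prdx4, Msra, Msrb2 and Msrb3 were highest on other arrays.

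Txnip, which binds and inhibits thioredoxin, was the exception in size on that list. It read 3.96, 3.66 and 3.80 in wild type and 3.15, 3.19 and 3.07 in the knockout, a gap wider than the spread of either genotype. Lower without overlap were 4.97% of all genes. The difference was -0.67 ± 0.12 (limma, unadjusted p = 0.000917, adjusted p = 1.00), and over all 24415 probes it did not pass the test. The Txnip probe lies at chr3:96365147-96365206 and that of Selenbp1 at chr3:94748621-94748680, on the same chromosome. The part of this position in the Txnip difference was not tested. Prdx3, the mitochondrial peroxiredoxin, differed by -0.24 ± 0.15.

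Of 10 partners in the endoplasmic reticulum, 6 had a lower mean, with a median of -0.047. Without overlap, 3 of the 10 were lower and 0 higher, beside 4.97% and 4.22% over all genes. Derl2, a channel component for misfolded proteins, was among the 3, with a difference of -0.24 ± 0.12. The ubiquitin ligase Syvn1 differed by -0.21 ± 0.11. Of 8 other factors of the selenocysteine tRNA and of selenoprotein mRNAs, 4 had a lower mean, with Ncl at -0.068 and Elavl1 at 0.052. Of 5 genes of ethanolamine phospholipid synthesis, 4 had a lower mean, with Etnk2 at 0.35 ± 0.19 and Chpt1 at -0.21 ± 0.18. Of 6 thyroid hormone receptors and transporters, 5 had a lower mean, with Slc16a10, a transporter of thyroid hormones and aromatic amino acids, at -0.16 ± 0.15. Crym, a cytosolic binder of thyroid hormone, read -2.99, -4.08 and -3.66 in wild type and -4.69, -4.82 and -4.83 in the knockout. It was lower without overlap, as were 4.97% of all genes, with a difference of -1.21 ± 0.27 (limma, unadjusted p = 0.00360, adjusted p = 1.00).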

How the data were processed

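Spot intensity, on a linear scale, was deposited as scanner output of Agilent Feature Extraction 10.7.1.1, whose processed signal has the background subtracted and spatial trends removed but no scaling across arrays, per the file headers. A series table of intensity was deposited too, with a median of 119.8 on each of the 6 arrays; no source used here gives its making, and it was an alternative. Coordinates are those of mm9, per the file headers.

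From the deposited intensity, the log2 processed signal minus the array's 75th percentile was computed. Outlier spots (192 to 459 of 43020 per array) were left out and spots of a probe averaged. Probes had to be well above background on every array of at least 1 genotype, and the brightest such probe stood for its gene. All 29 measured genes passed on all 6 arrays. Names came from RefSeq accessions (26412 probes), symbols (3854) or synonyms (735), and 8428 probes kept their name in the files. limma 3.58.1 in R 4.3.3 (lmFit, eBayes, two-sided) was fitted to all 24415 kept probes, with Benjamini-Hochberg adjustment over them, and the script was tested on simulated data. Alternatives changed the background correction, scaling, filter, slide, weights, pairing, arrays and probe choice.

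Named were all 30 genes, Selenbp1 and, from each partner list, the 2 kept genes with the smallest p, since none passed the test; markers named singly were chosen after their values were seen. The 30 genes and the lists were chosen with earlier results of these data known. The number of arrays limits the precision. Positions of probes in exons were not worked out.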

Additional observations from a re-analysis of the deposited data

How the results depend on the processing

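None of the 29 genes was called in any of the 18 alternatives, and the smallest adjusted p of any of them was 0.324 (limma, Lrp2, without wild-type replicate 3). The count at an unadjusted p under 0.05 was 0 and became 2 with normexp background correction and with quantile normalization (Selenot and Lrp2 in both), 1 with median scaling, with the deposited series table and with array weights (Lrp2 in each), 1 with the slide as a fixed or a random block (Selenot), 1 on the shared slide only (Lrp8), and 0 to 2 when an array was left out (2 without wild-type replicate 3, Dio2 and Lrp2; 1 without knockout replicate 1, Dio3; 1 without knockout replicate 2, Scly). Over all probes the share at that threshold was 9.78% with the slide as a fixed block and 10.1% with array weights, beside 3.95%, and 19 probes were called without wild-type replicate 3, beside 1. No probe, Selenbp1 included, was called in 8 of the 18 alternatives. The Selenbp1 difference was then -2.75 with no filter on background (adjusted p = 0.0824), -2.74 with the slide as a fixed block (0.0792) and on the shared slide only (0.347), and -2.75 with the replicate block (0.557). With an array left out it lay between -2.84 and -2.64, with adjusted p from 0.0186 to 0.167, and was called in 2 of 6 cases. The median over the 29 genes, -0.031, lay between -0.083 (without knockout replicate 1) and -0.023 when an array was left out.

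Of the 29 genes, 12 kept their direction in all 18 alternatives and 17, with differences of at most 0.14 in size, changed sign in at least 1, in 63 of 522 values; the cause was not tested. With normexp, Txnrd3 became 0.013, Selenon 0.065, Secisbp2l -0.0035 and Pstk 0.021. With quantile normalization, Selenoh became -0.0092, Msrb1 -0.014 and Secisbp2l -0.0016. With the series table, Selenok became 0.022, Sephs1 0.010 and Pstk 0.034. On the shared slide, and equally with the slide as a fixed block, Selenop became 0.18, Selenom -0.24, Selenon 0.083, Selenoo -0.048, Dio2 0.22, Sephs1 0.050, Secisbp2 0.048 and Secisbp2l -0.098. With the slide as a random block, Selenon became 0.0026, Sephs1 0.0035 and Secisbp2l -0.0051. With array weights, Selenoi became 0.0077, Selenoh -0.050, Sephs2 0.15 and Lrp8 0.29. With the mean over probes, Sephs1 became 0.087. Leaving out an array gave ranges of -0.20 to 0.017 for Selenop (without wild-type replicate 3 the lowest), -0.053 to 0.0059 for Selenok, -0.053 to 0.38 for Selenom, -0.15 to 0.048 for Selenoi, -0.072 to 0.055 for Selenon, -0.054 to 0.12 for Selenoh, -0.0019 to 0.10 for Msrb1, -0.31 to 0.013 for Dio2, -0.039 to 0.0085 for Sephs1, -0.11 to 0.18 for Sephs2, -0.085 to 0.076 for Secisbp2, -0.10 to 0.16 for Secisbp2l, -0.073 to 0.38 for Scly, -0.070 to 0.074 for Pstk and -0.84 to 0.72 for Lrp8. Among the 12 genes that kept their direction, the ranges with an array left out were -0.25 to -0.054 for Txnrd1, -0.28 to -0.13 for Txnrd2, -0.36 to -0.10 for Selenow, -0.15 to -0.024 for Selenos, -0.12 to -0.0014 for Sepsecs, 0.056 to 0.22 for Eefsec and -0.18 to -0.023 for Trnau1ap; with normexp, Selenov was 0.063, Eefsec 0.072, Trnau1ap -0.042 and Lrp2 -0.89.

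With the replicate number as a block (replicate block), 0 of the 29 genes were called and the median stayed at -0.031. Deviations of same-numbered arrays correlated at -0.33, 0.30 and -0.027. With so few arrays, and no differently numbered arrays set beside them, these values cannot settle whether the numbers pair the samples. The slide with both genotypes holds 1 wild-type array, which limits what the slide fits can show.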

Other observations

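Several probes at or near these genes belong to none of them by name. Both probes of Dio3os, the RNA transcribed opposite Dio3, were well above background on all 6 arrays. The first read -1.95, -2.11 and -2.25 in wild type and -2.14, -1.61 and -1.77 in the knockout, and the second -1.51, -1.59 and -1.94 against -1.69, -1.25 and -1.36. As with Dio3, knockout replicate 2 was highest and wild-type replicate 3 lowest, and the differences were 0.26 ± 0.17 and 0.25 ± 0.17 (SE; limma, adjusted p = 1.00). Whether either reading holds label from the opposite strand was not tested. Another 3 probes are described in the files as reading loci similar to Selenok, among them a Selenok pseudogene. These, LOC100046282, LOC100134990 and LOC100044404, were well above background on all 6 arrays and differed by 0.011 ± 0.10, 0.081 ± 0.13 and -0.059 ± 0.095.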
